A study of Mus musculus with 6 samples.

Results

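The ATF4 response, serine synthesis and amino acid transport genes followed here were 34 genes chosen by symbol, with earlier results of these data known. All 34 were found among the 12389 genes of the deposited tables, and all 34 passed the filter on low values. They comprise 11 transcription factors and stress effectors, 10 enzymes of serine, glycine and folate metabolism, 6 other enzymes of amino acid metabolism and 7 amino acid transporters. The RNA came from primary vascular smooth muscle cells, grown from explants of mouse thoracic aorta, kept in serum-containing medium without any treatment and collected at passage 6 or below. The 3 KO cultures came from mice with a smooth muscle-specific knockout of Lrrc8a, which encodes a subunit that volume-regulated anion channels need, and the 3 WT cultures came from wild-type mice. The submitters call the cultures independent biological replicates and name cellular stress and metabolism among the responses of interest. The sources used here do not give the Cre driver, the age of the mice or the number of animals behind a culture.

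ATF4 is the transcription factor through which cells answer amino acid shortage, endoplasmic reticulum stress and other insults that lead to phosphorylation of the translation factor eIF2. Its messenger RNA is translated better under those conditions, so that ATF4 protein can change when the level of Atf4 RNA does not. Together with C/EBP proteins it binds a composite element in its target genes, among them genes that make serine, glycine, asparagine and proline, that import amino acids, that feed folate-bound carbon units into nucleotide synthesis, and that limit or end the response itself. In arterial smooth muscle this programme is known from growth factor stimulation, when cells need amino acids for matrix and cell growth.

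Values below are scaled reads, that is, read estimates that had been rescaled library by library in the table the authors deposited. By the low values of each library, the KO libraries held an estimated 31.6 to 47.9 M reads and the WT libraries 31.0 to 45.4 M. Replicate 3 was the deepest library in both groups. The genotype entry is wild type throughout, KO samples included, so the groups follow the sample titles. Lrrc8a itself had 868, 672 and 506 scaled reads in KO replicates 1 to 3, against 2578, 2194 and 1221 in WT replicates 1 to 3, and the groups did not overlap. Of 8 smooth muscle markers 6 were in the table, the other two, Myocd and Des, were not, and the summed level ran from 821 to 3110 per 1000000 in KO and from 421 to 5710 per 1000000 of the table's total in WT. By gene 4 of the 6 lay lower in KO and 2 higher, with a median log2 fold change of -0.81, KO over WT. In limma 0 of them had an unadjusted p under 0.05, and with the replicate number as a block 1 did, lower in KO. KO lay below WT in all 3 same-numbered pairs for 3 of the 6, against 15.0% of all genes tested, and above in all 3 for 0. The medians of the differences by replicate number were -0.0, -1.42 and -1.34 for replicates 1, 2 and 3. Of 8 endothelial markers 2 were in the table, with sums of 3.01 to 12.7 per 1000000 in KO and 2.64 to 11.8 per 1000000 in WT, while Pecam1, Cdh5, Tek, Vwf, Emcn and Erg were not. Same-numbered KO and WT libraries deviated together from their group means, which touches every result below.

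The composite element is shown here because it ties part of the 34 genes together by sequence. Promoters, from 250 bases before to 50 bases after the transcript start, were matched by symbol in RefSeq (build GRCm38.p6) for 29 of the 34 genes, with none for Aldh1l2, Cth, Eif4ebp1, Slc1a5 and Slc7a5. The motif searched was TGATGNAA on both strands, and matches of TGATGCAA are a subset of it. It stood in 8 of the 29 genes, 27.6%, against 224 of the 9060 genes of the series with a promoter in the table, 2.47%, and 4.51% of all 27025 genes there. With the letters TGATGCAA the figures were 5 of 29, or 17.2%, against 0.662% and 1.03%. The 30-base windows around the matches follow, on the strand of each gene, with the match in capitals.
Nupr1: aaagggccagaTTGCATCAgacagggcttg
Chac1: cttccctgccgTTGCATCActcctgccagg
Slc7a11: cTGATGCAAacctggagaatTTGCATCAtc
Slc1a4: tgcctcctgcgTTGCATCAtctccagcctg
Trib3: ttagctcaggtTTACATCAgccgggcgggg
Asns: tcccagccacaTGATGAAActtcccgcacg
Pycr1: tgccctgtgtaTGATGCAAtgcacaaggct
Pck2: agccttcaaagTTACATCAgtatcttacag
In GRCm38.p6 they lie at chr7:126625562-126625591 on the minus strand for Nupr1, chr2:119351038-119351067 on the plus strand for Chac1, chr3:50443651-50443680 on the minus strand for Slc7a11 and chr11:20332699-20332728 on the minus strand for Slc1a4. Those of Trib3, Asns and Pycr1 lie on the minus strand at chr2:152344028-152344057, chr6:7693214-7693243 and chr11:120643833-120643862, and that of Pck2 lies on the plus strand at chr14:55540152-55540181. Counted from the RefSeq start, the match begins at base -110 in Nupr1, -193 in Chac1, -66 and -47 in Slc7a11, -4 in Slc1a4, -23 in Asns, and -103 in both Pycr1 and Pck2. In Trib3 it begins at base 15 after the start. The Nupr1 window lies inside the annotated span of its gene, 126623249 to 126630861, and that of Asns just inside its own, which ends at 7693254. For these genes the RefSeq start used is therefore not the annotated start of the gene as counted. A match of letters is a description of the sequence and says nothing about occupancy in these cells.

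Between KO and WT cultures, none of the 34 genes passed an adjusted p of 0.05 in limma, in which 0 of 12363 genes passed, a background of 0.00%. The most negative log2 fold changes were those of the glycine enzyme gene Gldc (-2.04), the stress effector genes Chac1 (-1.22), Trib3 (-1.17) and Nupr1 (-1.08) and the cysteine enzyme gene Cth (-1.17), while Atf4 itself was at 0.03. Nupr1, Chac1, Ppp1r15a and Slc1a4 were lower in every KO library than in any WT library, and no gene of the 34 was higher in every KO library. That is 4 of 34 genes, 11.8%, against a background of 4.51% of all genes tested, while 3.91% of all genes had KO libraries above WT. By same-numbered cultures, KO lay below WT in all 3 for 8 genes, Nupr1, Chac1, Trib3, Ppp1r15a, Gldc, Slc7a11, Slc6a9 and Slc1a4, or 23.5% against a background of 15.0%. KO lay above WT in all 3 for 0 of the 34, against a background of 15.7%. Since the 34 genes were chosen with earlier results of these data known, these shares and those that follow describe the list and test nothing.

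In limma, 3 of the 34 genes, Nupr1, Chac1 and Slc1a4, had an unadjusted p under 0.05, all lower in KO. The share is 8.82%, against 2.15% of all genes tested for lower in KO and 1.46% for higher. With the replicate number as a block, 7 genes did, adding Trib3, Ppp1r15a, Slc7a11 and Gldc, all lower in KO, a share of 20.6% against 4.25%, and 0 were higher against 3.17%. Adjusted over all genes, 0 passed with the block as well, against 0 of all genes (0.00%). With library weights 30 of all genes, 0.243%, passed the adjusted p, Nupr1 among them, and with weights and block 5 genes, 0.0404%, and none of the 34. In the fit with weights alone, WT replicate 2 had a weight of 7.99, against 0.494 and 0.376 for WT replicates 1 and 3. The WT mean of that fit thus rests mostly on 1 culture, and the estimation of the weights stopped short of its tolerance. The unadjusted count of 3 became 5 without KO replicate 2 and 1 without WT replicate 2, with no share of all genes counted there. The median log2 fold change, KO over WT on the log2(value + 2) scale, was -0.12 over the 34 genes and 0.00 over all genes tested. Values below 0 numbered 22 of 34, or 64.7%, against 49.6% of all genes, and the median turned to 0.09 without KO replicate 1 and to 0.04 without WT replicate 3.

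**Figure D1:**
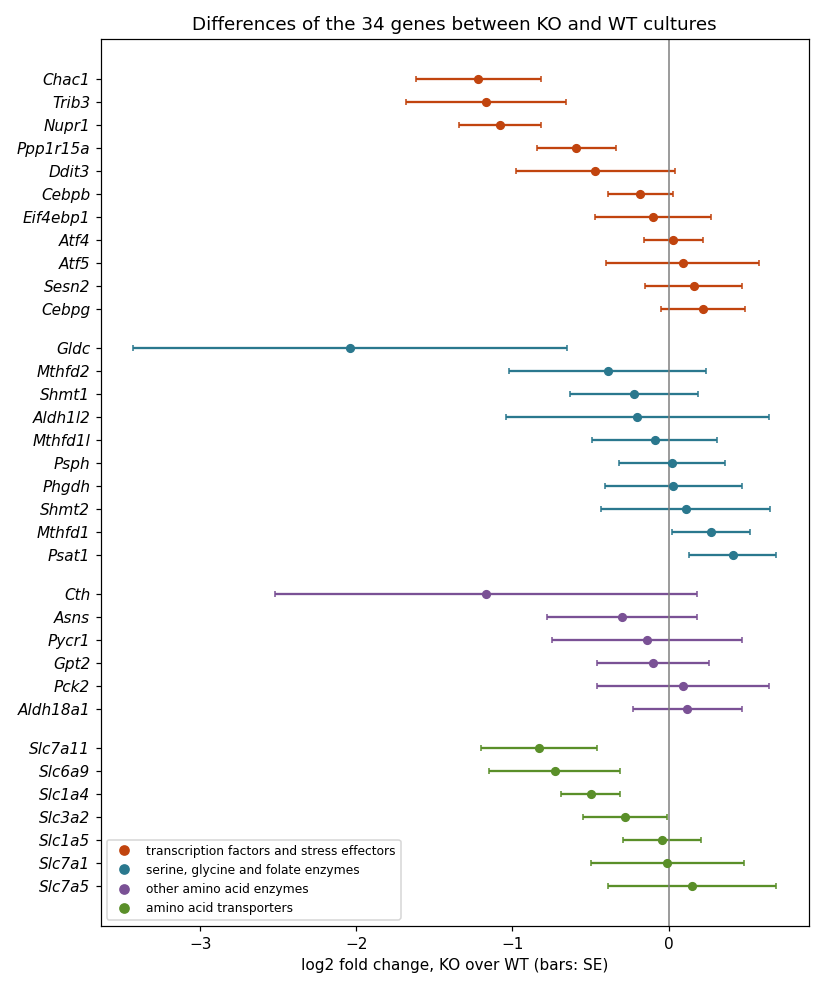
Log2 fold change of each of the 34 genes, KO over WT (horizontal axis), with bars of 1 SE from limma on 3 KO and 3 WT libraries; genes run down the page in 4 groups by role. The stress effectors Chac1, Trib3 and Nupr1 lie beyond -1, Atf4 lies at 0.03, and the long bars belong to Gldc (SE 1.39) and Cth (SE 1.35).

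The Nupr1 gene, which encodes a small chromatin-associated protein induced by many stresses, had 1769, 1531 and 1577 scaled reads in KO replicates 1 to 3, against 4166, 4050 and 2376 in WT replicates 1 to 3. The KO libraries sat close together below all WT libraries, and WT replicate 3 was the WT library nearest to them. The means were 1626 ± 126 in KO and 3531 ± 1001 in WT (SD, n = 3 each). Its limma log2 fold change was -1.08 (SE 0.26), with an unadjusted p of 0.00407 and an adjusted p of 0.999. In the authors' deposited table Nupr1 had a log2 ratio of -1.12, KO over WT, with a false discovery rate (FDR) of 0.043, and by p it ranked 61 of all genes there. No other gene of the 34 had an FDR under 0.05 there, and the background in the authors' deposited table was 65 of 12389 genes, or 0.525%, with 0.412% lower and 0.113% higher in KO. Before adjustment, 5 of the 34 had a p under 0.05 in the authors' deposited table, Nupr1, Chac1, Slc1a4, Slc7a11 and Ppp1r15a, all lower in KO, against backgrounds of 3.29% lower and 2.01% higher. Nupr1 (ENSMUSG00000030717, chromosome 7, 126623249 to 126630861, GRCm38) overlaps no other annotated gene.

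Chac1, whose product breaks down glutathione, had 513, 450 and 205 scaled reads in KO replicates 1 to 3, against 722, 1158 and 726 in WT replicates 1 to 3. The groups did not overlap, KO replicate 3 was the lowest library and WT replicate 2 the highest. Its log2 fold change in limma was -1.22 (SE 0.40), at an unadjusted p of 0.018 and an adjusted p of 0.999. The differences by replicate number were -0.49, -1.36 and -1.82 on the log2 scale for replicates 1, 2 and 3. Trib3, a pseudokinase that ATF4 induces and that restrains it in turn, had 125, 525 and 254 in KO, against 462, 735 and 572 in WT. KO replicate 2 reached into the WT range, but each KO culture lay below the WT culture of its number, by -1.87, -0.49 and -1.16. The log2 fold change of Trib3 was -1.17 (SE 0.51), with an unadjusted p of 0.0552 without and 0.00996 with the replicate block in limma. Both genes lie on chromosome 2 (Chac1 at 119351229 to 119354381 and Trib3 at 152337422 to 152344032, GRCm38), and neither overlaps another annotated gene.

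Ppp1r15a encodes GADD34, the regulatory subunit that brings a phosphatase to eIF2 and so ends the response. It had 1001, 1143 and 1270 scaled reads in KO, against 1330, 2313 and 1604 in WT, in replicates 1 to 3. The gap between the groups was narrow, from KO replicate 3 to WT replicate 1, and WT replicate 2 stood well above the rest. The limma log2 fold change was -0.59 (SE 0.25), with an unadjusted p of 0.0524, and of 0.0311 with the block. Tulp2 overlaps it on the other strand, and whether counting used strand is not given in the sources used here. Ddit3, which encodes the stress factor CHOP, had 1525, 4625 and 1159 in KO, against 2901, 3355 and 2244 in WT. Here KO replicate 2 was the highest library of all and the other two KO libraries the lowest, so that the log2 fold change of -0.47 (SE 0.51) carried no common direction. A second annotated gene of the same name overlaps Ddit3 on its own strand, and its values are uncertain for that reason.

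For Atf4 and its partner and related factors, the differences between genotypes lay within 1 SE of 0. Atf4 had 5581, 6191 and 6092 scaled reads in KO replicates 1 to 3, against 5403, 6737 and 5414 in WT replicates 1 to 3. The groups overlapped throughout, and the highest library was 1.25 times the lowest, where the median gene tested had a ratio of 1.95. The log2 fold change of Atf4 was 0.03 (SE 0.19). Cebpb and Cebpg, which encode C/EBP proteins that pair with ATF4, had -0.18 (SE 0.21) and 0.22 (SE 0.27), and Atf5, a related factor also controlled at translation, had 0.09 (SE 0.49). Atf5 ran from 2736 in WT replicate 1 to 9635 in WT replicate 3, a wider spread than Atf4 within the same genotype. Sesn2, which relays amino acid shortage to the growth kinase mTORC1, had 0.16 (SE 0.31), and Eif4ebp1, a repressor of cap-dependent translation, had -0.10 (SE 0.37).

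**Figure D2:**
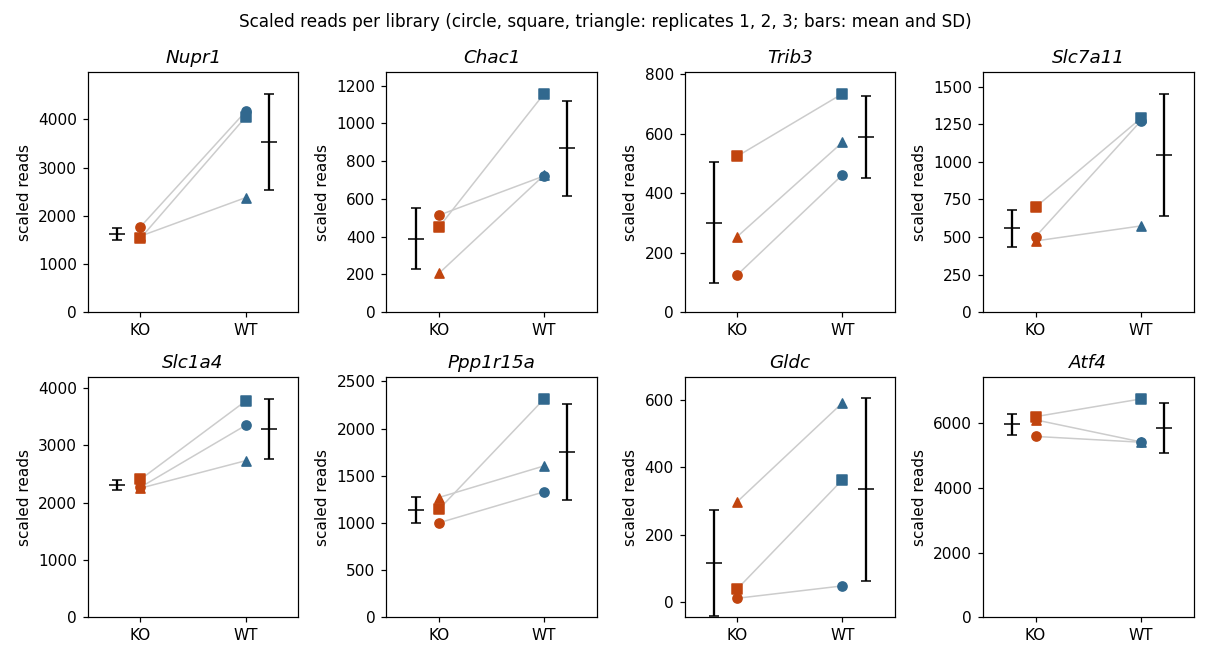
Scaled reads per library (vertical axes) in KO and WT cultures for 8 of the genes, with circle, square and triangle for replicates 1, 2 and 3, grey lines joining same-numbered libraries, and bars for the mean and SD of 3 libraries. Each KO library lies below the WT library of its number in the first 7 panels, and Atf4 lies between 5403 and 6737 in all 6 libraries.

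Among the transporters, 6 of 7 genes lay below 0, and their median log2 fold change was -0.28, against 0.00 over all genes tested. Slc1a4, a carrier of serine, alanine and other small neutral amino acids, had 2271, 2407 and 2254 scaled reads in KO, against 3351, 3776 and 2734 in WT, in replicates 1 to 3. The KO libraries were nearly level, and all lay below the lowest WT library, replicate 3. Slc1a4 averaged 2311 ± 84.0 in KO and 3287 ± 524 in WT (SD, n = 3 each). Its log2 fold change was -0.50 (SE 0.19), at an unadjusted p of 0.0356 and an adjusted p of 0.999 in limma. Slc7a11, the cystine importer that supplies glutathione synthesis, had 502, 699 and 474 in KO, against 1272, 1290 and 574 in WT. WT replicate 3 lay within the KO range, and the difference for that number was -0.28 on the log2 scale, against -1.34 and -0.88 for replicates 1 and 2. The log2 fold change of Slc7a11 was -0.83 (SE 0.37), at an unadjusted p of 0.056, and of 0.0175 with the block in limma.

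Slc6a9, a glycine transporter, had 293, 926 and 719 scaled reads in KO, against 934, 1046 and 912 in WT. KO replicate 1 stood far below the other libraries, KO replicate 2 lay inside the WT range, and the log2 fold change was -0.73 (SE 0.42). Slc3a2 is the heavy chain that both Slc7a11 and Slc7a5 need to reach the membrane, and its log2 fold change was -0.28 (SE 0.27). The remaining transporters lay within 0.15 of 0, with Slc7a5, the leucine carrier, at 0.15 (SE 0.54), Slc7a1, a carrier of cationic amino acids, at -0.01 (SE 0.49) and Slc1a5, the glutamine carrier, at -0.04 (SE 0.25). Slc7a5 had 1839, 5481 and 2740 in KO and 1658, 2359 and 5126 in WT, so that its highest libraries were KO replicate 2 and WT replicate 3. Predicted genes overlap Slc7a11 on both strands, and a stretch of at least 300 bases in an annotated Slc7a11 transcript is at least 95% identical to the tubulin genes Tuba1a, Tuba1b and Tuba1c, so its values are uncertain.

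In the serine pathway, the log2 fold change was 0.03 (SE 0.44) for Phgdh, 0.41 (SE 0.28) for Psat1 and 0.02 (SE 0.34) for Psph, none of them past an unadjusted p of 0.05 in limma. Psat1, the aminotransferase step, had 5419, 8179 and 10508 scaled reads in KO, against 5718, 5144 and 6746 in WT. KO replicates 2 and 3 were the highest libraries and KO replicate 1 lay inside the WT range, with an unadjusted p of 0.189 in limma. Phgdh, the entry step, had 2389, 4972 and 4347 in KO and 2393, 3114 and 6574 in WT, and the groups overlapped. Processed pseudogenes at least 95% identical to Phgdh over 300 bases or more are annotated, a pair of which, Gm7901 and Gm9347, have values of their own in the table, so the counting may have divided its reads.

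Of the 10 serine, glycine and folate enzymes 5 lay below 0 and 5 above, with a median log2 fold change of -0.03. Gldc, which breaks down glycine in mitochondria, had the most negative value of the 34. It had 10.7, 38.1 and 297 scaled reads in KO, against 47.4, 363 and 592 in WT, in replicates 1 to 3. Both genotypes were lowest in replicate 1 and highest in replicate 3, and each KO culture lay below the WT culture of its number. The log2 fold change of Gldc was -2.04 (SE 1.39), at an unadjusted p of 0.185 in limma, and with the block the SE was 0.59 and the unadjusted p 0.0137 (adjusted p 0.547). The mitochondrial folate enzymes Shmt2, Mthfd2, Mthfd1l and Aldh1l2 had 0.11 (SE 0.54), -0.39 (SE 0.63), -0.09 (SE 0.40) and -0.20 (SE 0.84). Their cytosolic counterparts Shmt1 and Mthfd1 had -0.22 (SE 0.41) and 0.27 (SE 0.25). Aldh1l2 shares 1056 bases with D10Wsu102e, which overlaps it on the other strand and has values of its own, so the values of Aldh1l2 are uncertain.

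The other amino acid enzymes had a median of -0.12 for the log2 fold change, with 4 of 6 genes below 0. Asns, which makes asparagine and is a standard ATF4 target, had 1222, 2677 and 3129 scaled reads in KO, against 1612, 2652 and 4506 in WT. The groups overlapped, with replicate 1 lowest and replicate 3 highest in both genotypes, and the log2 fold change was -0.30 (SE 0.48). The proline synthesis genes Aldh18a1 and Pycr1 had 0.12 (SE 0.35) and -0.14 (SE 0.61). Pck2, the mitochondrial form of phosphoenolpyruvate carboxykinase, had 0.09 (SE 0.55), and the alanine aminotransferase Gpt2 had -0.10 (SE 0.36). Cth, which releases cysteine from cystathionine, had 6.42, 129 and 32.7 scaled reads in KO replicates 1 to 3, against 26.1, 63.0 and 236 in WT replicates 1 to 3, with KO replicate 1 the lowest library. Its log2 fold change of -1.17 (SE 1.35) rests on libraries that span 36.7-fold.

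The culture number accounted for more of the variation than the genotype did in 27 of the 34 genes, or 79.4%, a share close to the 78.7% of all genes tested (9728 of 12363). The variation of each gene over 6 libraries, on the log2 scale, was divided into a part between genotypes, a part between replicate numbers and a remainder. With 3 numbers against 2 genotypes, number takes the larger part more often even where neither matters, so shares are read beside all genes. Over the 34 genes the median share was 69.7% for number and 5.44% for genotype, against 54.9% and 10.3% over all genes tested, a description with no test. Among the other amino acid enzymes the medians were 89.2% for number and 1.62% for genotype, and among serine, glycine and folate enzymes 73.9% and 3.05%. Aldh1l2, which oxidises a folate-bound carbon unit in mitochondria, had 97.7% by number, with 380, 2119 and 1728 scaled reads in KO and 487, 1910 and 2269 in WT. By contrast genotype took 79.8% in Nupr1, 76.0% in Slc1a4, 63.0% in Chac1 and 57.2% in Ppp1r15a, shares that describe the same difference as the fold changes above and add no support to them.

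**Figure D3:**
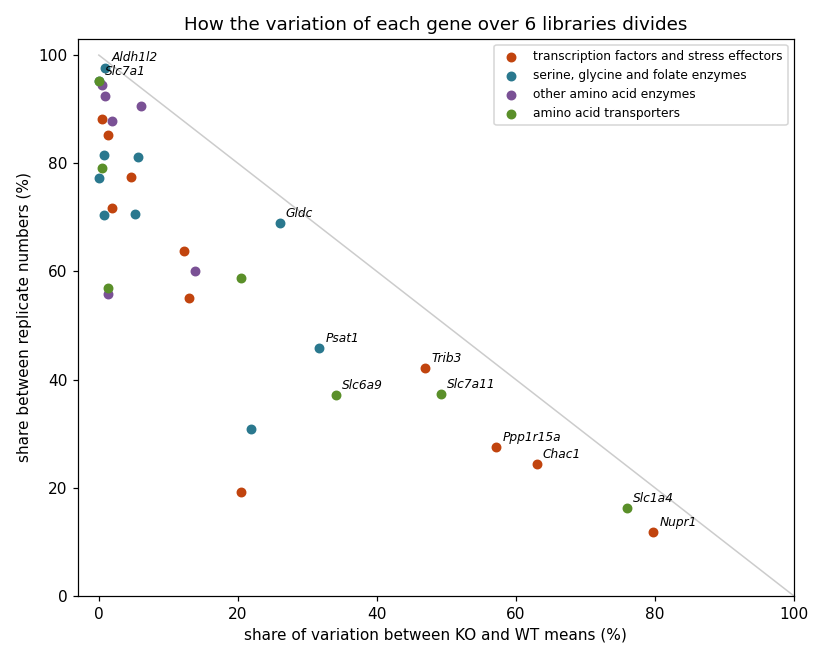
Share of the variation over 6 libraries that lies between KO and WT means (horizontal axis, %) and between replicate numbers (vertical axis, %), one point per gene, coloured by role; on the grey line nothing is left over. Most enzymes lie at the upper left and Nupr1 (79.8% and 11.8%) and Slc1a4 (76.0% and 16.2%) at the lower right.

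The libraries that were low or high were shared across the biosynthetic genes. The median deviation of the 10 serine, glycine and folate enzymes from their mean over libraries was -0.84, 0.28 and 0.48 in KO replicates 1 to 3, against -0.41, -0.21 and 0.61 in WT replicates 1 to 3, on the log2 scale. For the 6 other amino acid enzymes it was -0.75, 0.34 and 0.33 in KO, and -0.79, 0.10 and 0.86 in WT. KO replicate 1 was the lowest library for 14 of the 34 genes and WT replicate 3 the highest for 17. Over all 12363 genes tested, KO replicate 1 was the lowest for 1525 and WT replicate 3 the highest for 2486. The 11 transcription factors and stress effectors had medians of -0.41, 0.07 and -0.13 in KO and -0.09, 0.31 and 0.36 in WT, with a smaller gap between numbers. The medians of the within-number differences over the 34 genes were -0.35, 0.17 and -0.34 for replicates 1, 2 and 3, so the number 2 cultures went the other way. The contractile gene Acta2 had 18724, 21829 and 59317 scaled reads in KO replicates 1 to 3, against 10651, 13083 and 130984 in WT. Tagln, another contractile gene, had 10030, 8327 and 40463 in KO replicates 1 to 3, against 2240, 8008 and 58393 in WT. Both were also highest in WT replicate 3, and in WT both rose from replicate 1 to 3, as the medians of the other amino acid enzymes did. In KO, replicate 2 of Acta2 stayed near replicate 1 and that of Tagln lay below it, whereas the enzyme medians rose. A link between the contractile genes and the enzymes was not tested.

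**Figure D4:**
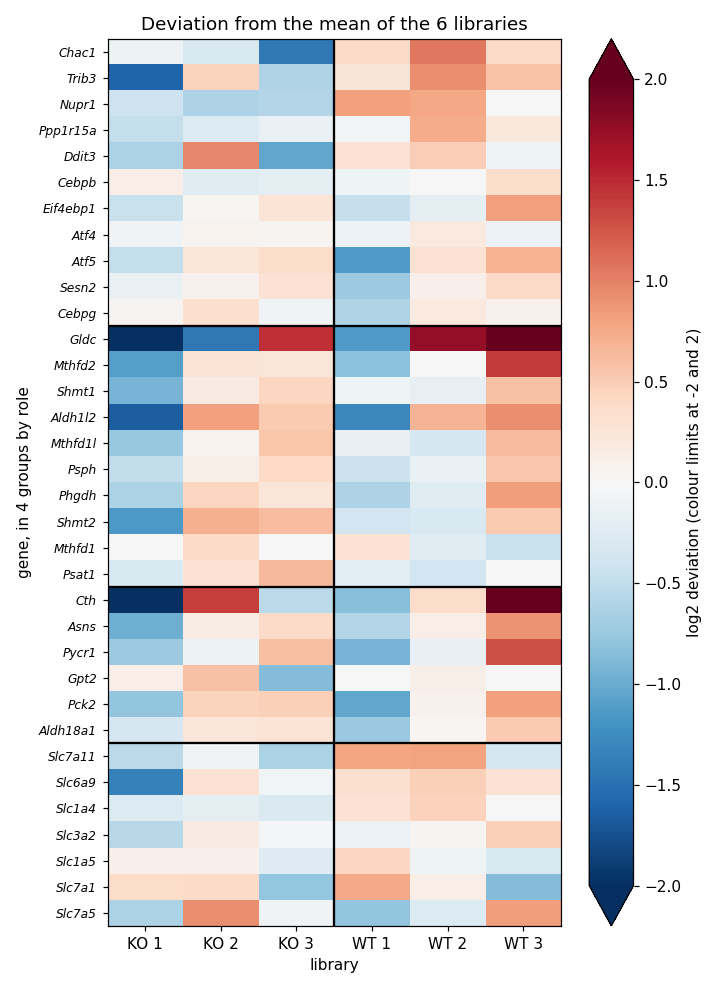
Log2 deviation of each gene (rows, in 4 groups by role) from its mean over the 6 libraries (columns, KO to the left of WT), with red above and blue below the mean. The enzyme rows are mostly blue in KO 1 and WT 1 and red in WT 3, while Nupr1, Chac1, Slc1a4 and Ppp1r15a have every KO cell below any WT cell.

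Levels of different genes were compared per kilobase of annotated exon. Per kilobase the highest were Atf5, at 3190 in KO and 3310 in WT, Cebpb, at 3020 and 3440, and Atf4, at 2530 and 2480. Among the enzymes Psat1, at 1890 in KO and 1380 in WT, was highest in KO, and Phgdh, at 1570 in KO and 1620 in WT, was highest in WT. The last step of the pathway, Psph, stood at 191 in each. At the low end stood Gldc, at 19.0 in KO and 54.8 in WT, and Cth, at 20.1 and 38.8. The exon lengths are those of all annotated transcripts of a gene together, and so overstate the length of genes with many isoforms.

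The genes that hold the promoter match can be set beside these values. Of the 7 genes lower in KO at an unadjusted p under 0.05 with the block, 5 had the match, Nupr1, Chac1, Slc7a11, Slc1a4 and Trib3, and Ppp1r15a and Gldc had none. Of the other 22 genes with a promoter 3 had it, Asns, Pycr1 and Pck2, with log2 fold changes of -0.30, -0.14 and 0.09. The 7 were picked by their values here, so the division carries no test, and 5 of the 34 genes have no promoter in the table.

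Other genes of the pathway were read from lists that do not overlap the 34. Beside their counts stand these shares of all genes tested: 49.6% lay below 0, with a median of 0.00. At an unadjusted p under 0.05 in limma, 2.15% were lower and 1.46% higher in KO, and with the block 4.25% and 3.17%. Of 15 genes of eIF2, its kinases and regulators, 1 had an unadjusted p under 0.05 in limma, lower in KO, and the median log2 fold change was 0.09. It was Eif2ak3, the kinase PERK of the endoplasmic reticulum, with 2452, 2680 and 1614 scaled reads in KO, against 3286, 4267 and 3469 in WT, groups that did not overlap (log2 fold change -0.73, SE 0.25). Eif2s1, which encodes the phosphorylated subunit of eIF2, had 0.35 (SE 0.19). Of 18 other ATF4-regulated genes 13 lay below 0, with 1 lower and 1 higher at an unadjusted p under 0.05, and 3 lower and 2 higher with the block. Without the block, the lower one, Atf3, a factor of the same response, had 66.3, 83.2 and 43.4 in KO, against 409, 363 and 181 in WT, with no overlap, and in the authors' deposited table a log2 ratio of -2.31 at an FDR of 0.00603. The higher one, the lipoprotein receptor gene Vldlr, had 3836, 3051 and 1352 in KO, against 1240, 1582 and 483 in WT. The groups overlapped, but each KO culture lay above the WT culture of its number. Its log2 fold change was 1.35 (SE 0.56), with an unadjusted p of 0.047 without and 0.000638 with the block in limma. That block p was smaller than the 0.00271 of Nupr1, the smallest of the 34 (adjusted p with the block 0.259 for Vldlr).

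The cytosolic aminoacyl-tRNA synthetases, which load amino acids onto transfer RNA, lay near 0, with a median log2 fold change of -0.13 over 21 genes, none of which had an unadjusted p under 0.05 in limma. Eprs and Wars had -0.42 (SE 0.32) and 0.43 (SE 0.21). Of 14 other amino acid transporters 13 lay below 0, against 49.6% of all genes tested, with a median of -0.51. Of the 14, 0 had an unadjusted p under 0.05 in limma, and 1 did with the block, lower in KO. The list was chosen with earlier results known, so these counts test nothing. Slc36a1, a lysosomal amino acid transporter, had -0.59 (SE 0.28), and Slc6a15 was listed at 0 in KO replicates 1 and 3, with 33.5 in KO replicate 2 against 23.7, 118 and 263 in WT replicates 1 to 3. Of 19 further serine, glycine, folate and methionine genes and 15 further amino acid enzymes, 0 had an unadjusted p under 0.05 in limma, and 2 lower in the first list and 2 lower and 1 higher in the second did with the block. Mtr, methionine synthase, had -0.49 (SE 0.22), the folate enzyme gene Aldh1l1 -2.07 (SE 0.93), the aspartate aminotransferase Got1 -0.53 (SE 0.23), and Odc1, the entry to polyamine synthesis, -0.54 (SE 0.25). After adjustment over all genes, no gene of these lists passed in limma, with or without the block.

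Summed markers of other cell types are given beside these values. Leukocyte markers, of which 4 of 8 were in the table, summed to 21.7 to 49.1 per 1000000 in KO and 55.6 to 69.7 per 1000000 in WT, and Ptprc, Adgre1, Fcgr1 and Itgam were not in the table. By gene all 4 lay below 0, with a median log2 fold change of -0.79. Of the 4, 1 had an unadjusted p under 0.05 in limma, with and without the block, and 1 was lower in every KO library than in any WT library. Fibroblast markers, all 8 in the table, summed to 7600 to 10700 per 1000000 in KO and 5600 to 6130 per 1000000 in WT. The abundant collagen genes Col1a1 and Col1a2 belong to that sum, with means of 159781 and 121144 scaled reads in KO and 104821 and 86410 in WT, whereas by gene 4 of the 8 lay below 0 and 4 above, with a median log2 fold change of 0.15. Epithelial and mesothelial markers, 5 of 8 in the table without Krt8, Epcam and Wt1, summed to 32.2 to 185 per 1000000 in KO and 154 to 253 per 1000000 in WT, and overlapped. The part of these cell types in the values of the 34 genes was not tested. In bulk RNA, fewer cells that express a gene and less RNA per cell cannot be told apart.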

How the data were processed

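Stranded poly(A)-selected libraries from 3 KO and 3 WT cultures were sequenced, per the labels' protocols. The submitters' processing notes name STAR, Partek, DESeq2, GRCm39 and mm39 but give neither roles nor versions. The coordinates in the authors' deposited table are GRCm38: of 12385 genes with a GENCODE M21 identifier 12341 share its start. The per-library table deposited as raw counts holds a scaled signal, not whole counts: 1 read was worth 0.712 to 1.16 in KO and 0.791 to 1.185 in WT, and 82.5% to 92.3% of values up to 50 reads lay within 0.05 of a whole read. The authors' deposited comparison table gives p-values and FDR, a ratio and a log2 ratio of KO over WT, and mean signals.

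limma 3.58.1 (R 4.3.3, mean trend, robust priors) was fitted with genotype alone on log2(value + 2) for 12363 genes with at least 10 in at least 3 libraries. p-values are two-sided, with Benjamini-Hochberg adjustment over all genes. The fit was tested on simulated data with independent noise in each library, which lack the shared deviation of same-numbered libraries. An exact permutation test of 3 libraries against 3 cannot go below p = 0.1, the value for Nupr1, Chac1, Slc1a4 and Ppp1r15a. Same-numbered libraries had correlated deviations (0.43, 0.15 and 0.39 for replicates 1, 2 and 3), so the numbers were taken to pair them, a pairing seen in the data and given by no label. Near-identical copies were sought with BLAST+ 2.17.0 in GENCODE M21 transcripts. Aldh1l2, Psph, Slc6a9 and Cebpb share stretches of 320 to 1261 bases with genes that overlap them on the other strand. Those genes are D10Wsu102e, Cct6a, Ccdc24 and Tmem189. Whether counting used strand is not given, so the values of Aldh1l2, Psph, Slc6a9 and Cebpb are uncertain. The 34 genes and all lists were chosen with earlier results of these data known. Per-library values are given for genes with groups that do not overlap or with an unadjusted p under 0.05 with or without the block, for Atf4, and for others picked after their values were seen. In each further list the 2 genes with the smallest p are named. Alternatives were other filters, pseudocounts and scalings, the other deposited table, the block, library weights and leaving out each library.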

Additional observations from a re-analysis of the deposited data

How the results depend on the processing

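Under other filters, pseudocounts, TMM scaling and the other deposited table, the counts of the 34 genes with an adjusted or unadjusted p under 0.05, and the sign of each of the 34 log2 fold changes, were the same as reported; with total scaling Slc7a1 turned to 0.02, and 2 of the 34 in place of 3 had an unadjusted p under 0.05. Adding the replicate block, 7 of the 34 genes had an unadjusted p under 0.05 in place of 3, and the block changed no adjusted call, while the unadjusted counts of the further lists moved as given with them above. With library weights, whose estimation stopped short of its tolerance, 30 of all genes passed, 1 of the 34 (Nupr1, log2 fold change -1.31, adjusted p 0.045), and 9 of the 34 had an unadjusted p under 0.05. With weights and block these were 5, 0 and 8, the median log2 fold change of the 34 was -0.02, and the adjusted p of Nupr1 was 0.104. Over all settings that of Nupr1 ran from 0.045 to 1. Signs turned with the weights for Atf4 (-0.14), Atf5 (-0.19), Eif4ebp1 (0.09), Gpt2 (0.18), Mthfd1l (0.17), Sesn2 (-0.02), Shmt1 (0.01), Slc1a5 (0.13) and Slc7a1 (0.12), and with weights and block for Atf4 (-0.04), Eif4ebp1 (0.07), Gpt2 (0.19), Mthfd1l (0.10), Slc1a5 (0.04) and Slc7a1 (0.07). The cause was not tested. For total scaling, the weighted fits and fits without a library, the share of all genes at an unadjusted p under 0.05 was not counted. Those counts of the 34 therefore have no background beside them.

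Leaving out each library in turn gave 0 to 1 of all genes called, 0 of the 34, 1 to 5 of the 34 at an unadjusted p under 0.05, and medians of -0.38 to 0.09. The sign held in 14 of the 34, among them Nupr1 (-1.34 to -0.93), Chac1 (-1.47 to -0.81), Trib3 (-1.69 to -0.66), Slc7a11 (-1.22 to -0.63), Slc1a4 (-0.62 to -0.39), Ppp1r15a (-0.77 to -0.37) and Gldc (-3.29 to -1.01). It turned in 20: Aldh18a1 (-0.22 to 0.41), Aldh1l2 (-0.90 to 0.58), Asns (-0.67 to 0.11), Atf4 (-0.02 to 0.14), Atf5 (-0.45 to 0.45), Cebpg (-0.03 to 0.37), Eif4ebp1 (-0.36 to 0.28), Gpt2 (-0.41 to 0.31), Mthfd1l (-0.39 to 0.27), Mthfd2 (-0.89 to 0.22), Pck2 (-0.41 to 0.52), Phgdh (-0.28 to 0.45), Psph (-0.19 to 0.29), Pycr1 (-0.64 to 0.47), Sesn2 (-0.17 to 0.39), Shmt1 (-0.49 to 0.18), Shmt2 (-0.21 to 0.72), Slc1a5 (-0.20 to 0.17), Slc7a1 (-0.45 to 0.37) and Slc7a5 (-0.28 to 0.61). Low values such as that of Cth in KO replicate 1 rest on few reads, and each group holds 3 cultures.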
